A study of Mus musculus with 5 samples.

Results

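The genes described here are 10 that megakaryocytes and platelets use to bind, signal and secrete: Gp1ba, Gp1bb, Gp5, Gp6, Gp9, Pf4, Ppbp, Itga2b, Vwf and Mmrn1. They were chosen by name, and every probe set that the platform annotation gives to a single one of them was taken. This found 11 probe sets of 9 of the 10 genes, out of 45037 probe sets and 18193 genes on the array, and Gp1ba was not analysed here. Gp1bb and Mmrn1 had more than 1 probe set each.

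The arrays compared 3 knockout libraries (Zbtb7a Flox/Flox Mx1-Cre+, lacking LRF, the transcription factor encoded by Zbtb7a) with 2 control libraries (Zbtb7a Flox/+ Mx1-Cre+, with 1 floxed allele). The cells were long-term haematopoietic stem cells (LT-HSCs) of C57BL/6 mice aged 4 weeks, sorted as LSK cells negative for IL7Ra, Flt3 and CD48 and positive for CD150. Mice of both groups carried Cre under the interferon-inducible Mx1 promoter, which is active in many blood and other cells, and received 2 injections of 250 µg of pIpC, a double-stranded RNA analogue, with sorting on day 9 after the first. The label of knockout replicate 3 joins 2 animal numbers, so that library may hold cells of more than 1 mouse. The design text asked what loss of Lrf does to the LT-HSC transcriptome, and since the controls were heterozygous, loss of a single allele could not be seen.

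Platelets are shed by megakaryocytes. They stop at a wound when the receptor complex of glycoproteins Ib, IX and V grips von Willebrand factor, and they then stick together through the integrin of Itga2b and Itgb3 and release the chemokines of their alpha granules. Several of these genes, Vwf and Itga2b among them, are also transcribed in LT-HSCs, and in mice Vwf marks stem cells that favour platelet production.

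Promoters of 4 of these genes are shown because their transcripts bear on the comparison below: Gp1bb, Gp9 and Itga2b are the genes whose groups did not overlap, and Gp5 encodes another subunit of the same receptor as Gp1bb and Gp9. Each sequence is the 250 bases before the transcription start in the RefSeq table (GRCm38.p6), 5′ to 3′ on the strand of the gene. For Gp9 that start lies inside the span annotated to the gene, so the window precedes an internal start, while the other windows end at the edge of their genes. Capitals mark matches, on either strand, to motifs of 3 families of factors. For GATA factors, the family of Gata1, the letters searched were AGATAA or AGATAG, besides TGATAA or TGATAG. For ETS factors, the family of Fli1, they were AGGAAG or CGGAAG, and for RUNX factors, the family of Runx1, TGTGGT or TGCGGT.
Gp1bb (chr16:18622404-18622653, minus strand): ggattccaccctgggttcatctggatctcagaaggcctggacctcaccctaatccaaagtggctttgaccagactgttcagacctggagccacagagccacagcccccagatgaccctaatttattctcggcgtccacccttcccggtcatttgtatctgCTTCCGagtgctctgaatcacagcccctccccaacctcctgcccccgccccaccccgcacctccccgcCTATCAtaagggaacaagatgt
Gp9 (chr6:87777820-87778069, plus strand): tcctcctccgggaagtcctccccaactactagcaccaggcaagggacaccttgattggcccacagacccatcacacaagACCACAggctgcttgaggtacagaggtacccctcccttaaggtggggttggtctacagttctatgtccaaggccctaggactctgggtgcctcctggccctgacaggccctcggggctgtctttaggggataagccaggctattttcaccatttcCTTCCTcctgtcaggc
Itga2b (chr11:102469884-102470133, minus strand): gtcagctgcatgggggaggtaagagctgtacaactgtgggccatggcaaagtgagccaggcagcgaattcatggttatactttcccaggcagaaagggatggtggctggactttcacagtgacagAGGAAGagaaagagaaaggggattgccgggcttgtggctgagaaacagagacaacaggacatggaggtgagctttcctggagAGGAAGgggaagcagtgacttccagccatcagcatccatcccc
Gp5 (chr16:30310782-30311031, minus strand): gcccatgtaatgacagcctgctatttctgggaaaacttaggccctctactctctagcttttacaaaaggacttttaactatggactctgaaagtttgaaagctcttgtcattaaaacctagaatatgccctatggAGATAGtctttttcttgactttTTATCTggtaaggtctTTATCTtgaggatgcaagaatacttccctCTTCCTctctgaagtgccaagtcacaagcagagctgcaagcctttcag
The RefSeq table held promoters for 9 of the 10 genes (all but Vwf). A GATA motif was found in 5 of these 9, against 26.5% of 32851 promoters of the same length, an ETS motif in 6 of 9, against 39.2%, and a RUNX motif in 1 of 9 (Gp9), against 18.6%. Gp5 and Gp1ba had 3 GATA matches each, while Ppbp had no match to any of the 3 families. These matches are letters in a window and say nothing of binding.

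Values are log2 intensities from RMA, which gives every array the same overall distribution, so they compare arrays for a given probe set and not different genes with each other. Array medians were 6.38 to 6.40. The 40% of probe sets with the lowest means, those under 5.77, were treated as near background and not tested. Knockout replicate 2 stood apart, with correlations across probe sets of 0.945 to 0.970 with the other arrays, against 0.977 to 0.990 among the others, and its 3′ minus 5′ difference for Actb was 3.85, against 4.90 to 5.21 elsewhere. Differences are therefore given with and without that array, or with the value of every array. Zbtb7a itself did not check the labels: its 3 probe sets differed by 0.41, -0.36 and -0.05 (log2, knockout minus control), with exact two-sided permutation p-values of 0.3, 0.4 and 0.8 for n = 3 and n = 2, and where its probes lie relative to the deleted part was not analysed here.

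None of the 8 genes that could be tested passed the test. On the brightest probe set of each, these 8 genes were all lower on average in knockouts, with log2 differences of -1.27 to -0.30 and a median of -0.61. Over all 12813 genes tested the median was -0.03 and 56.3% were lower. Without knockout replicate 2 the 8 genes were still all lower, with a median of -0.22, against 49% of all genes. Gp5 was then only at -0.02 (SE 0.20) and Pf4 at -0.03 (SE 0.46). The 8 genes were read from the same libraries and are not replicates of each other. In the limma fit, 0 of the 9 probe sets of these genes had an adjusted p under 0.05 or an unadjusted p under 0.05, where over all 27022 probe sets 0 were called (0%) and 306 (1.13%) had an unadjusted p under 0.05. All 9 had an adjusted p of 1. In bulk RNA, fewer cells of a type and less RNA per cell cannot be told apart.

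Groups did not overlap for 3 of the 8 genes, Gp1bb, Gp9 and Itga2b, each lower in every knockout array than in both controls. Over all genes tested, 4.5% were lower without overlap and 2.68% higher (7.18% in either direction). The same 3 genes remained apart without knockout replicate 2, where 13.5% of all genes were lower without overlap. The remaining 5 genes above the filter overlapped.

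**Figure D1:**
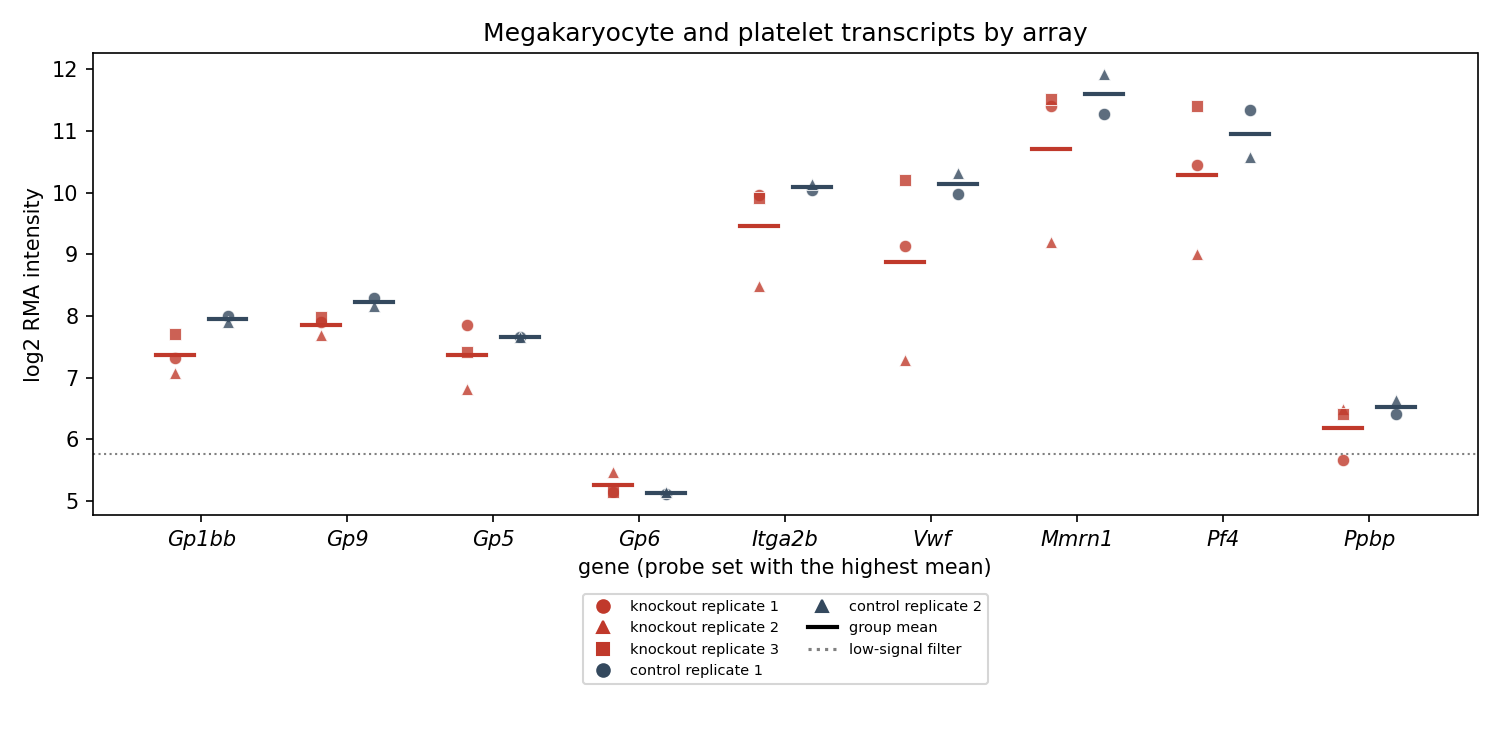
Log2 RMA intensity (vertical axis) of each gene on its brightest probe set, with the 3 knockout arrays in red at the left of each pair and the 2 control arrays in dark blue at the right. Symbols give the replicate, short bars the group means and the dotted line the low-signal filter at 5.77. Knockout replicate 2 (red triangle) is the lowest of the 5 arrays for 7 of the 8 genes above the filter, and Gp6 lies below the filter in every array.

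The receptor for von Willebrand factor was measured through 3 of its 4 subunit genes. Gp1bb, which encodes the beta chain of glycoprotein Ib and holds the ligand-binding alpha chain at the surface, read 7.32, 7.08 and 7.71 in knockout replicates 1, 2 and 3, against 8.00 and 7.90 in control replicates 1 and 2. All 3 knockouts lay below both controls, and the controls differed by 0.10 from each other. The log2 difference was -0.58 (SE 0.23), or 1.49-fold lower in knockouts, with an adjusted limma p of 1. Without knockout replicate 2 the difference was -0.43 (SE 0.19).

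The dimmer Gp1bb probe set did not show this. It read 7.09, 7.03 and 6.84 in the knockouts, against 7.20 and 6.76 in the controls, a difference of 0.0059 (SE 0.20). The knockout values lay between the controls, so the lower level of Gp1bb rests on 1 of its 2 probe sets, and the mean of both differed by -0.29.

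Gp9 encodes glycoprotein IX, without which the complex does not reach the surface. It read 7.91, 7.69 and 7.98 in knockout replicates 1, 2 and 3, against 8.29 and 8.16 in the controls. The knockouts were again all below both controls, and the gaps were small. The difference was -0.36 (SE 0.16; adjusted limma p of 1), 1.29-fold lower, and was the steadiest of the 8: it stayed between -0.43 and -0.28 when single arrays were left out. Gp5, whose product glycoprotein V is cleaved by thrombin, read 7.86, 6.82 and 7.42 in knockouts, against 7.66 in both controls. Knockout replicate 1 lay above the controls and the others below, so the groups overlapped. The difference was -0.30 (SE 0.34), and -0.02 (SE 0.20) without knockout replicate 2.

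Receptors for other ligands differed in how well they could be measured. Gp6, the collagen receptor of platelets, read 5.15, 5.47 and 5.14 in knockouts, against 5.11 and 5.14 in controls. All 5 values lay below 5.77, so Gp6 was near background in both groups and was not tested. Itga2b, the integrin alpha IIb chain that also appears on early progenitors as CD41, read 9.96, 8.49 and 9.91 in knockouts, against 10.04 and 10.14 in controls. Every knockout was below both controls, but relative to the control mean replicates 1 and 3 stood at -0.13 and -0.18 and replicate 2 at -1.60. The difference was -0.64 (SE 0.51), and -0.16 (SE 0.13) without that array.

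Of the 8 genes, those of the adhesive proteins varied most between arrays. Vwf, von Willebrand factor, read 9.14, 7.29 and 10.21 in knockout replicates 1, 2 and 3, against 9.98 and 10.31 in controls. Replicates 1 and 2 lay below both controls and replicate 3 lay between them. The difference was -1.27 (SE 0.89), 2.41-fold lower on average, and -0.47 (SE 0.42) without replicate 2. Its range over the 5 arrays was 3.02, wider than for 97.3% of genes, where the median gene had a range of 0.72.

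Mmrn1, multimerin 1, a large carrier protein of platelet factor V, was, like Vwf, lowest in knockout replicate 2. It read 11.40, 9.20 and 11.51 in knockouts, against 11.27 and 11.92 in controls. Knockout replicates 1 and 3 lay between the controls, and replicate 2 stood at -2.39 relative to the control mean. The difference of -0.89 (SE 0.81) became -0.14 (SE 0.27) without replicate 2. The other Mmrn1 probe set read 3.72 to 3.92 in knockouts and 3.78 to 3.83 in controls, near background, and was not tested.

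The chemokines of the alpha granules did not follow each other. Pf4, platelet factor 4, which in mice also restrains the cycling of stem cells when released by megakaryocytes, read 10.45, 9.01 and 11.40 in knockout replicates 1, 2 and 3, against 11.34 and 10.57 in controls. Replicates 1 and 2 lay below both controls and replicate 3 above both. The difference was -0.67 (SE 0.76), and -0.03 (SE 0.46) without replicate 2.

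Ppbp, pro-platelet basic protein, is the direct neighbour of Pf4 on chromosome 5 (GRCm38.p6). It read 5.66, 6.49 and 6.41 in knockouts, against 6.41 and 6.64 in controls. Here knockout replicate 1 was the lowest array, below the level taken as near background, while replicate 2 lay between the controls. The difference was -0.34 (SE 0.31), and -0.49 (SE 0.31) without replicate 2. Exact two-sided permutation p-values for these genes (n = 3 and n = 2, smallest possible 0.1) were 0.1 for Gp9, 0.2 for Gp1bb, 0.3 for Vwf and 0.5 or 0.6 for the other 5.

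**Figure D2:**
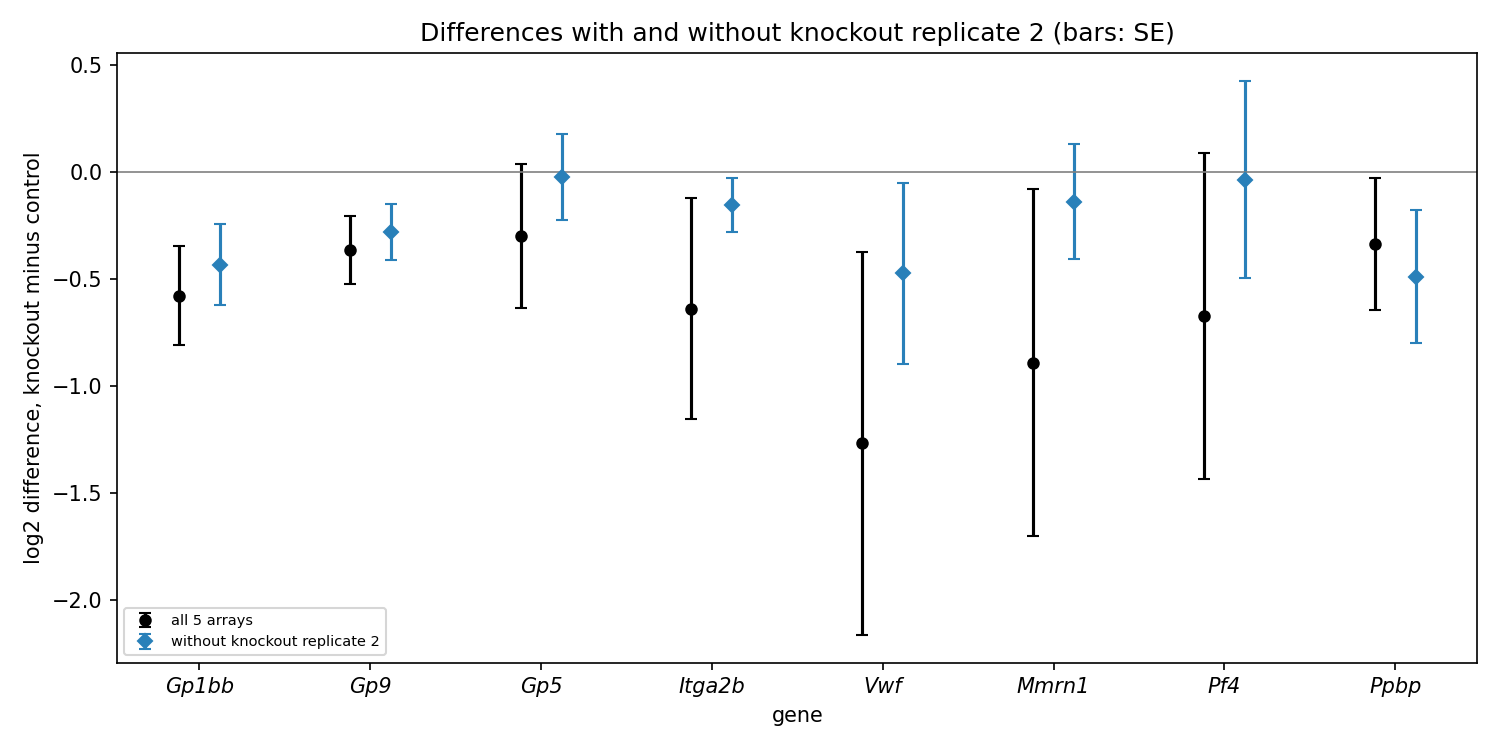
Log2 difference, knockout minus control (vertical axis), for the 8 genes above the filter, with the moderated SE as bars, over all 5 arrays (black circles) and without knockout replicate 2 (blue diamonds). Without that array Mmrn1 moves from -0.89 to -0.14 and Pf4 from -0.67 to -0.03, while Gp9 moves from -0.36 to -0.28.

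Taken array by array, knockout replicate 2 was below both controls for 7 of the 8 genes, replicate 1 for 6 and replicate 3 for 4. Among all genes tested these shares were 44.7%, 25.9% and 25.9%. Gp5 in replicate 1 and Pf4 in replicate 3 were the members above both controls. Relative to the control mean, the median over the 8 genes was -0.41 in replicate 1, -1.23 in replicate 2 and -0.15 in replicate 3. Knockout replicate 2 was the lowest of the 5 arrays for 7 of the 8 genes, against 40.7% of all genes, and lay at least 1 below the mean of the other arrays for 4 (Pf4, Itga2b, Vwf and Mmrn1), against 10.3%.

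Most stem cell and gate markers were also low in that array. The 11 such genes measured of 13 listed include Cd48 and Flt3, whose products the gate excluded. Of the 11, 9 were lowest in knockout replicate 2. The mean log2 level of all 11 was 9.60, 8.01 and 9.74 in knockout replicates 1, 2 and 3, against 9.17 and 10.16 in controls. On its brightest probe set Kit read 9.60 in knockout replicate 2 and 11.12 to 11.82 elsewhere. A dimmer Kit probe set fell less, at 7.15 there and 7.40 to 7.96 elsewhere. Slamf1, which encodes the CD150 used in the sort, read 6.60 there and 8.06 to 9.16 elsewhere. Cd48, whose product was absent from the gate, read 9.97 there and 7.87 to 8.59 elsewhere, and Flt3 was above the filter in all arrays (8.25 to 8.92 in knockouts, 8.41 to 9.50 in controls). The part of these shifts in the results above was not tested.

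Markers of other cells also differed between arrays, and those of granulocyte-monocyte progenitors were highest on average in knockout replicate 2. All 9 granulocyte-monocyte progenitor genes measured of 10 listed were above the filter, with a mean level of 9.96, 11.79 and 10.25 in the knockouts, against 10.40 in both controls. The 13 immediate early genes averaged 11.06 in knockout replicate 2 and 7.10 to 7.42 elsewhere, with Fos at 14.04 against 6.96 to 7.23. Erythroid markers, 10 measured of 12, averaged 10.87, 12.04 and 11.50 in knockouts, against 12.26 and 10.36 in controls. Macrophage markers, all 14 measured, averaged 8.30, 8.65 and 9.53 in knockouts, against 10.80 and 9.89 in controls. Of the 14, 10 were lower without overlap of the groups, against 4.5% of all genes (12 of 14 without knockout replicate 2, against 13.5%). The list was chosen with earlier results of these data known, so these shares describe the chosen genes and are no independent test. The median log2 difference of the macrophage markers was -1.55. By smallest limma p the first were Axl at -2.31 (SE 0.55), Spic at -1.07 (SE 0.27) and Cd163 at -3.09 (SE 0.90). Axl and Cd163 had an adjusted limma p of 1, and 0 of the 14 were called. Without knockout replicate 2 Axl, Spic and Cd163 stood at -2.04, -0.92 and -2.88. Endothelial markers matter because endothelium also makes Vwf. Of the 10, 7 were above the filter, and Cdh5, Pecam1 and Emcn were not. The endothelial list averaged 7.14, 6.36 and 7.25 in knockouts, against 6.87 and 7.27 in controls. The part of any of these cells in the 8 genes was not tested.

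**Figure D3:**
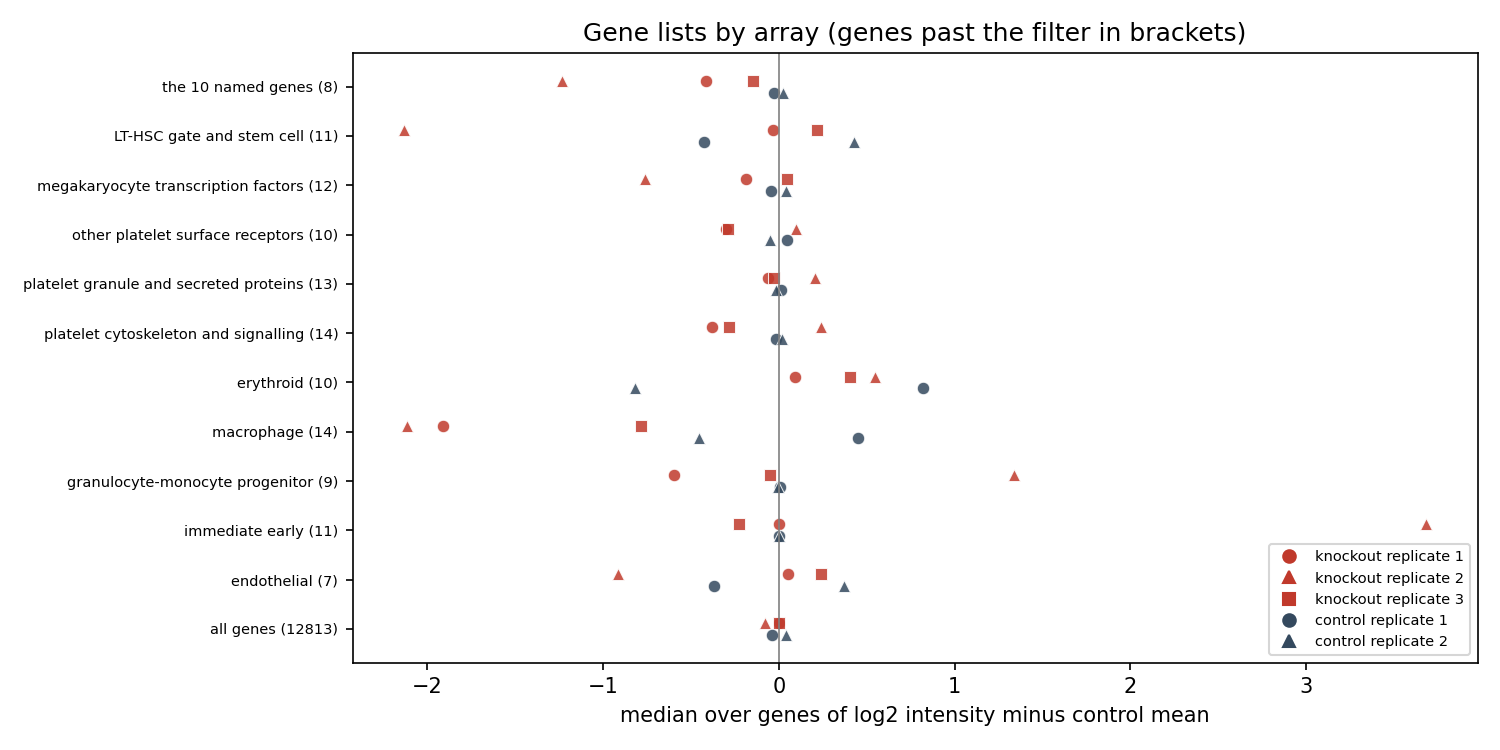
Median over the genes of each list (rows, number of genes above the filter in brackets) of the log2 intensity minus the control mean, by array, with knockouts in red and controls in dark blue. In knockout replicate 2 (red triangles) the 8 of the 10 named genes above the filter lie at -1.23 and the stem cell and gate list, Cd48 and Flt3 included, at -2.13. Platelet cytoskeleton and signalling genes lie at 0.24 there and immediate early genes at 3.68.

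Other megakaryocyte and platelet genes gave 4 lists, also chosen with earlier results of these data known. From these lists 0 genes passed the limma test over all probe sets and 0 had an unadjusted p under 0.05. Of the 12 transcription factor genes of the lineage, all above the filter, 10 were lower and 2 higher in knockouts, with a median difference of -0.26, and groups did not overlap for 1 (lower), against 4.5% of all genes. Without knockout replicate 2 the median was -0.06, with 2 genes apart lower and 1 apart higher, against 13.5% and 13.9% of all genes. The gene apart over all arrays was Tal1, a factor shared by stem, red and megakaryocyte cells, at -0.42 (SE 0.23), and at -0.24 without knockout replicate 2. Nfe2, which drives platelet release, was at -0.29 (SE 0.21), and at -0.42 without that array. Etv6 was at -0.64 (SE 0.42), and at -0.31 without it. Meis1, which acts in stem cells and megakaryocytes, read 11.45, 8.67 and 11.66 in knockouts, against 11.14 and 12.12 in controls, a difference of -1.03 (SE 1.05) that became -0.07 without knockout replicate 2. Gata1 differed by 0.19 (SE 0.40), Fli1 by -0.14 (SE 0.17) and Runx1 by -0.23 (SE 0.32), and without that array by 0.39, -0.11 and 0.03 in the same order.

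Of 16 other platelet surface receptor genes, 14 were measured and 10 lay above the filter, 7 of them lower and 3 higher in knockouts, with a median of -0.23. Groups did not overlap for 2, both lower, against 4.5% of all genes. Without knockout replicate 2 the median was -0.29 and 5 of the 10 were apart, all lower, against 13.5%. Relative to the control mean, the list median was -0.30, 0.10 and -0.29 in knockout replicates 1, 2 and 3, so the array left out went the other way. Ptger3, a prostaglandin E2 receptor, read 9.02, 6.76 and 9.11 in knockouts, against 9.36 and 10.02 in controls, a difference of -1.40 (SE 0.83), and of -0.63 without knockout replicate 2. Treml1, a receptor stored in alpha granules, read 7.99, 7.85 and 7.99 in knockouts, against 8.25 and 8.00 in controls, so its groups were only narrowly apart. The difference was -0.18 (SE 0.16), and -0.14 without knockout replicate 2. Itgb3, which pairs with Itga2b, read 7.99, 9.11 and 8.60 in knockouts, against 8.13 and 8.50 in controls, so that knockout replicate 2 was the highest array for Itgb3 and the lowest for Itga2b. F2rl3, a thrombin receptor, read 5.80, 5.82 and 5.80 in knockouts, against 5.77 and 6.69 in controls, so its difference of -0.43 (SE 0.30) rests on control replicate 2, and control replicate 1 lay below every knockout, at the level of the filter. P2ry12, the ADP receptor of platelets, Itga2 and Cd226 were near background.

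Of 15 granule and secreted protein genes, 14 were measured and 13 lay above the filter, 7 lower and 6 higher, with a median near 0. Groups did not overlap for 2, both higher, against 2.68% of all genes. Without knockout replicate 2 the median was -0.06, with 3 apart lower and 3 apart higher, against 13.5% and 13.9%. Selp, the adhesion molecule P-selectin, read 6.25, 7.68 and 6.83 in knockouts, against 7.63 and 9.00 in controls, a difference of -1.39 (SE 0.61), and of -1.78 without knockout replicate 2. Of the knockouts only replicate 2 overlapped the controls. Sparc, a secreted matrix protein, was higher without overlap by 0.21 (SE 0.13), with or without that array. Vegfa read 6.47, 7.62 and 6.61 in knockouts, against 6.42 and 6.23 in controls, a difference of 0.57 (SE 0.40) that became 0.21 without knockout replicate 2. Clu, clusterin, was at -0.40 (SE 0.24), and at -0.24 without it.

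Of 18 cytoskeleton and signalling genes, 16 were measured and 14 lay above the filter, 9 lower and 5 higher, with a median of -0.21. Groups did not overlap for 3, all lower, against 4.5% of all genes. Fermt3, which encodes kindlin-3, the activator of platelet integrins, read 12.99, 12.76 and 13.06 in knockouts, against 13.31 and 13.40 in controls, a difference of -0.41 (SE 0.16; adjusted limma p of 1), and of -0.32 without knockout replicate 2. Tbxas1, thromboxane synthase, differed by -0.78 (SE 0.42) and Nrgn by -0.39 (SE 0.24), which became -0.42 and -0.20 without that array. Without it the list median was -0.34, and groups did not overlap for 10 of the 14, all lower, against 13.5% of all genes. The array left out is the one in which the list went the other way. Relative to the control mean, the list median was -0.38, 0.24 and -0.28 in knockout replicates 1, 2 and 3. The granulocyte-monocyte progenitor list had the same order, at -0.60, 1.34 and -0.05. Without knockout replicate 2, 8 of its 9 genes were lower and 4 were apart lower, against 13.5% of all genes. The part of other blood cells in the cytoskeleton and signalling list was not tested. Tubb1, the tubulin of platelets, differed by 0.31 (SE 0.27), and by 0.18 without knockout replicate 2.

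The genes whose profile over the 5 arrays was closest to that of Vwf, the member with the widest range, were Csgalnact1, Trpc6, Dst, Rab27b and Mansc1. Their mean-centred log2 values differed from those of Vwf by a root mean square of 0.24 to 0.29. Rab27b, a small GTPase of granule secretion, read 7.83, 5.30 and 8.49 in knockouts, against 7.90 and 8.79 in controls. In knockout replicate 2 Rab27b and Trpc6 (4.84) lay below 5.77, the level taken as near background. Csgalnact1, a chondroitin sulphate enzyme, read 9.25, 7.11 and 10.04 in knockouts, against 9.41 and 10.38 in controls. Among the members, Mmrn1 ranked 27th of all other genes (0.37), Pf4 123rd (0.49) and Itga2b 271st (0.59), whereas Gp9 (0.96) and Ppbp (1.14) were far down the order. This likeness is a description of 5 arrays, each the same library for every gene.

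**Figure D4:**
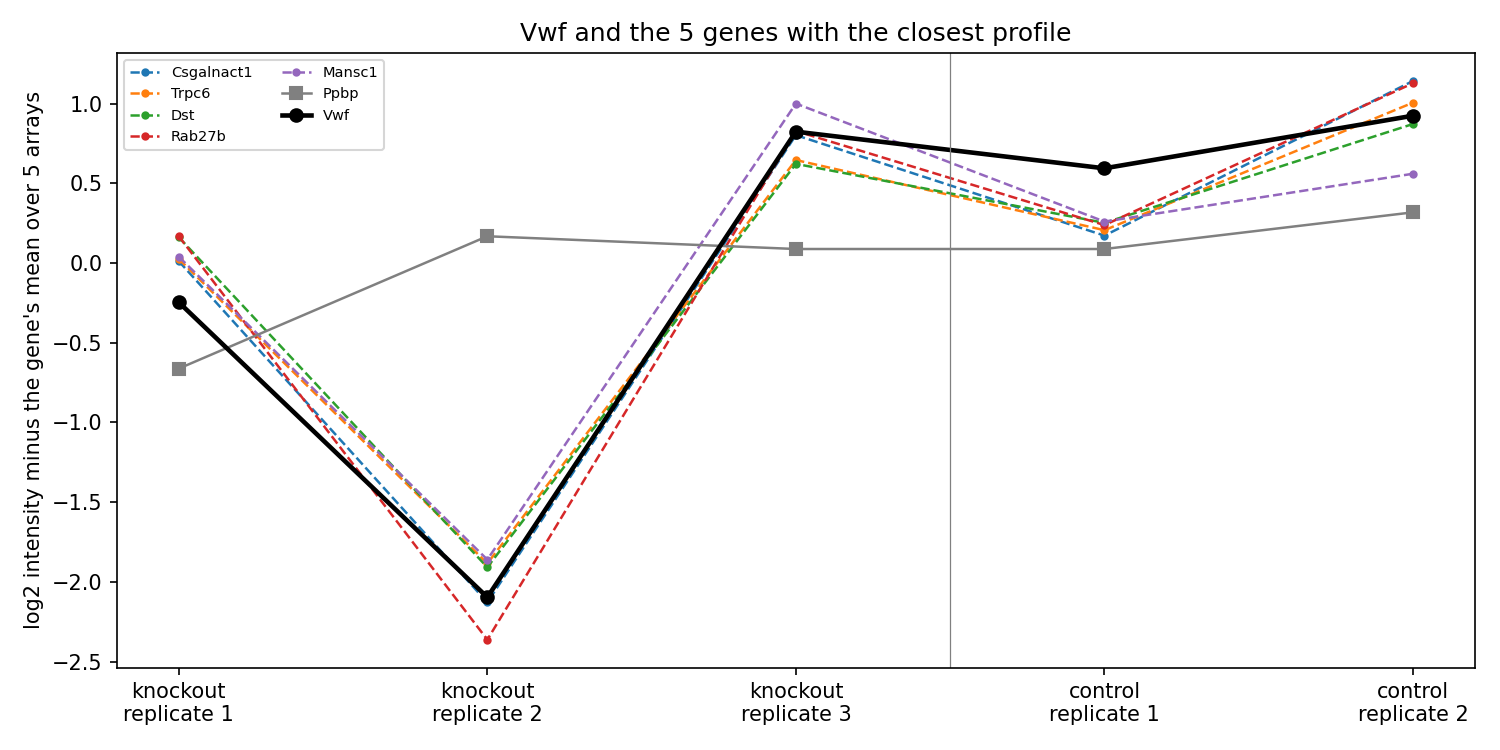
Log2 intensity minus the mean of each gene over the 5 arrays (vertical axis) for Vwf (black), the 5 genes with the closest profile (dashed) and Ppbp (grey), with the knockout arrays at the left and the control arrays at the right of the vertical line. Vwf and the 5 genes are lowest in knockout replicate 2, where Ppbp is between its control values.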

How the data were processed

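Biotinylated cRNA was amplified through 2 rounds of in vitro transcription, per the labels' protocols, which weights signal towards 3′ ends. The authors deposited log2 intensities of 5 Affymetrix arrays. Per the submitters' processing notes they came from RMA, run in Affymetrix Expression Console, with no version stated. No scanner files were used. Of 45101 rows, 64 control probe sets and then the lowest 40% by mean (below 5.77) were left out, and 27022 were tested. The platform annotation gave 34945 probe sets 1 gene symbol, 932 several and 9160 none. A gene was represented by its brightest probe set.

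The groups were compared with limma 3.58.1 in R 4.3.3 (lmFit, eBayes, no covariate, two-sided, Benjamini-Hochberg over all probe sets tested, adjusted p under 0.05), after a test on simulated data. Every array's value is given for the 10 genes in place of an SD, and SE is the moderated one. The number of arrays limits the precision.

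The 10 genes, the 10 lists (133 entries, 123 measured, 111 above the filter) and the tests were chosen with earlier results of these data known. Named were all 10 genes, up to 4 genes of each list by smallest p with single markers added after their values were seen, and the 5 genes closest to the widest-ranging member. Alternatives were no filter or the lowest 60%, another prior, cyclic loess, median centring, array weights, a gene's mean over probe sets, the replicate number as a block, and omission of single arrays. Promoters came from RefSeq (GRCm38.p6). Figures were drawn with matplotlib 3.10.9.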

Additional observations from a re-analysis of the deposited data

How the results depend on the processing

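No alternative gave a called probe set in the limma fit, over all probe sets or among these genes (174 to 1160 of all probe sets had an unadjusted p under 0.05), and for the 8 genes on their brightest probe sets the direction stayed lower in knockouts throughout, except that Gp5 was at 0.12 with array weights. The dimmer Gp1bb probe set ranged from -0.21 to 0.23 when single arrays were left out, and was negative without knockout replicate 1 (-0.05), knockout replicate 2 (-0.01) or control replicate 2. The median difference was -0.81 to -0.22 when single arrays were left out, the weakest being without knockout replicate 2. The number of genes whose groups did not overlap was 3 to 6 when single arrays were left out: 5 without knockout replicate 3 (Pf4 and Vwf added, against 10.2% of all genes lower) and 6 without control replicate 1 (Ppbp, Vwf and Mmrn1 added, against 28.9%), where fewer arrays make overlap less likely. With the replicate block the median was -0.81 and Vwf was at -1.93, the same as without knockout replicate 3, the only replicate 3. Deviations of same-numbered arrays from their group means correlated at -0.54 and -0.57. With 2 controls the deviations of one mirror those of the other, so each correlation recurs with the opposite sign for the other control. These values therefore cannot decide whether the numbers pair the samples, and no crossed pairing was fitted. The mean of probe sets was computed for the differences and not refitted across all probe sets.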

Other observations

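A probe set annotated to both Septin5 and Gp1bb, neighbouring genes on chromosome 16 (GRCm38.p6), was kept out of the results because it names no single gene. It read 6.27, 9.67 and 7.57 in knockout replicates 1, 2 and 3, against 9.45 and 7.21 in control replicates 1 and 2. The order of the arrays thus differs from that of both Gp1bb probe sets, with a spread of over 3 log2 units and no separation of the groups. F13a1, coagulation factor XIII A, which platelets, monocytes and macrophages make, read 12.56 in knockout replicate 2, against 7.79 and 8.20 in the other knockouts and 7.98 and 7.41 in the controls. F5, coagulation factor V, the cargo of multimerin 1, read 6.81, 10.46 and 8.45 in knockouts, against 9.14 and 7.83 in controls, whereas Mmrn1 was lowest in knockout replicate 2. These genes were chosen after their values were seen.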
